A study of Mus musculus with 13 samples.

Results

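Of the genes measured on arrays of mouse intestine, 64 of 19938 belonged to the amino acid transporter families Slc1a, Slc3a, Slc6a, Slc7a, Slc36a, Slc38a and Slc43a. They were chosen by symbol: a probe set entered when it carried exactly 1 gene symbol that began with a family name followed by a digit, and each gene was read on its probe set with the highest mean over all 13 arrays. The rule found 66 probe sets, because Slc38a1 and Slc38a9 had 2 each, and it used no measured difference between groups. Of the 64 symbols, 3 are not established transporters of these families, and they are described after the others.

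All samples came from mice with an Apc mutation that were crossed with a transgenic line expressing FPs, a term that is not explained in these sources. The 3 groups were intestinal adenomas (n = 3), normal small intestinal epithelium with high FP expression, called FP-high (n = 4), and normal small intestinal epithelium with low FP expression, called FP-low (n = 6). The normal tissue lay next to adenomas and carried the same mutation and transgene as the tumours, so neither normal group is wild type. The allele, the promoter of the transgene, the age of the mice and which samples share an animal are not stated there. Samples were picked as crypts with 40 µm glass capillaries, and their RNA was amplified before it was put on Affymetrix Mouse Gene 1.0 ST arrays, with a separate array for each sample. The p-values below therefore describe the spread over these samples, part of which may be technical.

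Amino acids reach the blood from the gut lumen across both faces of the enterocyte. Sodium- or proton-coupled carriers and an exchanger take them up at the brush border, and heteromeric exchangers, each made of a light chain and a glycoprotein heavy chain, pass them on at the basolateral face. Growing cells also import glutamine, serine and essential amino acids for protein synthesis and for signalling through the kinase complex mTORC1. The sodium-coupled system A carriers of the Slc38 family and the exchangers built on the Slc3a2 heavy chain are the classical routes of this import.

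Levels are the deposited log2 values, so a difference of 1 is a doubling of signal. Probe sets differ in brightness for reasons other than abundance, and no level is compared between genes. The table holds no detection calls, so a dim level cannot be told from background: 16 of the 64 genes read below the array median in all 13 arrays, and 21 reached a log2 level of 5 in at least 3 arrays. FP-high replicate 1 differed from all other arrays. The SD of its values was 1.21 over tested probe sets, where the other 12 had 1.89 to 2.10, and its median correlation with the rest was 0.762, against 0.943 to 0.968 for the others. Among the transporter genes it was the lowest of all 13 arrays in 15 and the highest in 24, while no other array was lowest in more than 9 or highest in more than 7. Where leaving this array out turns a printed difference of a single transporter gene or moves it by over 1.5 times, the value without it is given as well. The epithelial gene Epcam ran from 9.24 to 9.33 in adenomas, from 7.58 to 9.24 in FP-high and from 9.03 to 9.58 in FP-low arrays. Means over 8 epithelial genes, Epcam among them, were 8.86 to 9.69 in adenomas and 8.59 to 9.58 in FP-low arrays. FP-high replicates 2, 3 and 4 had means of 9.56, 9.68 and 9.02, and replicate 1 was lower, at 6.54. Apart from that array these levels are in keeping with the labelled tissue. In such bulk samples, fewer cells of a type and less RNA per cell cannot be told apart.

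In adenomas, 1 of the 64 transporter genes passed the test against normal epithelium, Slc38a4, which rose 53.2-fold. None was called lower. Over all 23410 tested probe sets, 0.884% were called as higher in adenomas and 0.0256% as lower (limma, adjusted p under 0.05, adenoma mean minus the average of the 2 normal group means). A block for the replicate number lowered the count over all probe sets to 66 higher and 1 lower, from 207 and 6, and left Slc38a4 as the 1 called transporter gene. By sign, 21 transporter genes were higher in adenomas and 43 lower, or 67.2% lower, with a median difference of -0.16. All tested probe sets were lower in 61.9% of cases, with a median of -0.09. At an unadjusted p under 0.05 there were 2 higher transporter genes (Slc38a4 and Slc7a6) and 4 lower ones (Slc7a8, Slc6a4, Slc36a3 and Slc6a7), set against 5.98% and 4.59% of all probe sets. Adenoma arrays lay wholly above the 10 normal arrays in Slc38a4 and wholly below them in Slc1a3, and the same held for 1.93% and 2.04% of all probe sets.

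In FP-high normal epithelium set against FP-low, 0 transporter genes were called, as were 0% of all tested probe sets (limma, adjusted p under 0.05). By sign 45 transporter genes were higher in FP-high epithelium and 19 lower, or 29.7% lower, with a median of 0.10. All tested probe sets were lower in 43.7% of cases (median 0.05). Without FP-high replicate 1 the split was 38 higher and 26 lower and the median 0.02, the same as over all probe sets. Unadjusted p-values under 0.05 were found for 5 genes with higher levels in FP-high samples (Slc38a5, Slc38a7, Slc6a11, Slc6a20a and Slc7a15) and for 4 with lower levels (Slc38a2, Slc7a1, Slc7a5 and Slc1a1), where 4.78% and 7.95% of all probe sets had them. Without FP-high replicate 1 the counts at that threshold were 9 higher and 2 lower. Of the 23410 probe sets, 864 were then higher and 1132 lower. Every FP-high array lay below every FP-low array in Slc38a2 and Slc7a1, as in 1.51% of all probe sets. No transporter gene had all FP-high arrays above the FP-low ones, a pattern of 0.743% of them all. Without FP-high replicate 1, Slc36a3 and Slc6a3 had it, as did 325 of the 23410 probe sets.

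**Figure D1:**
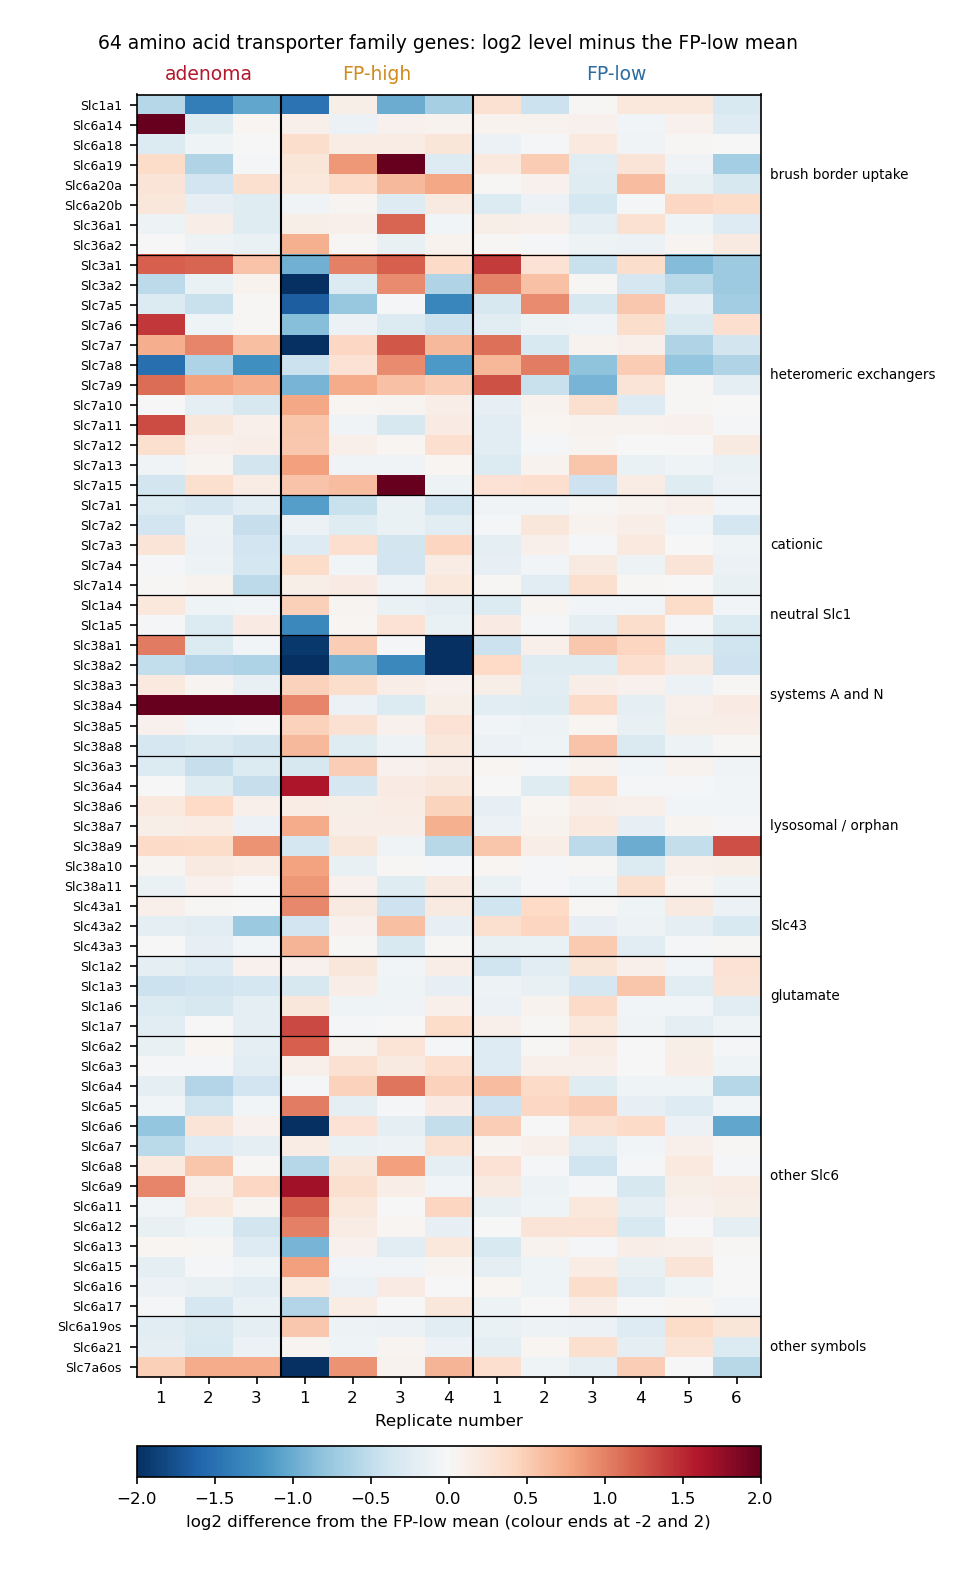
Log2 level of each of the 64 transporter genes in each array minus the gene's FP-low mean, with arrays as columns (adenoma, FP-high, FP-low, by replicate number) and genes as rows grouped by role. Slc38a4 is far above the FP-low mean in all 3 adenomas, and the column of FP-high replicate 1 holds many of the extreme colours in both directions.

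**Figure D2:**
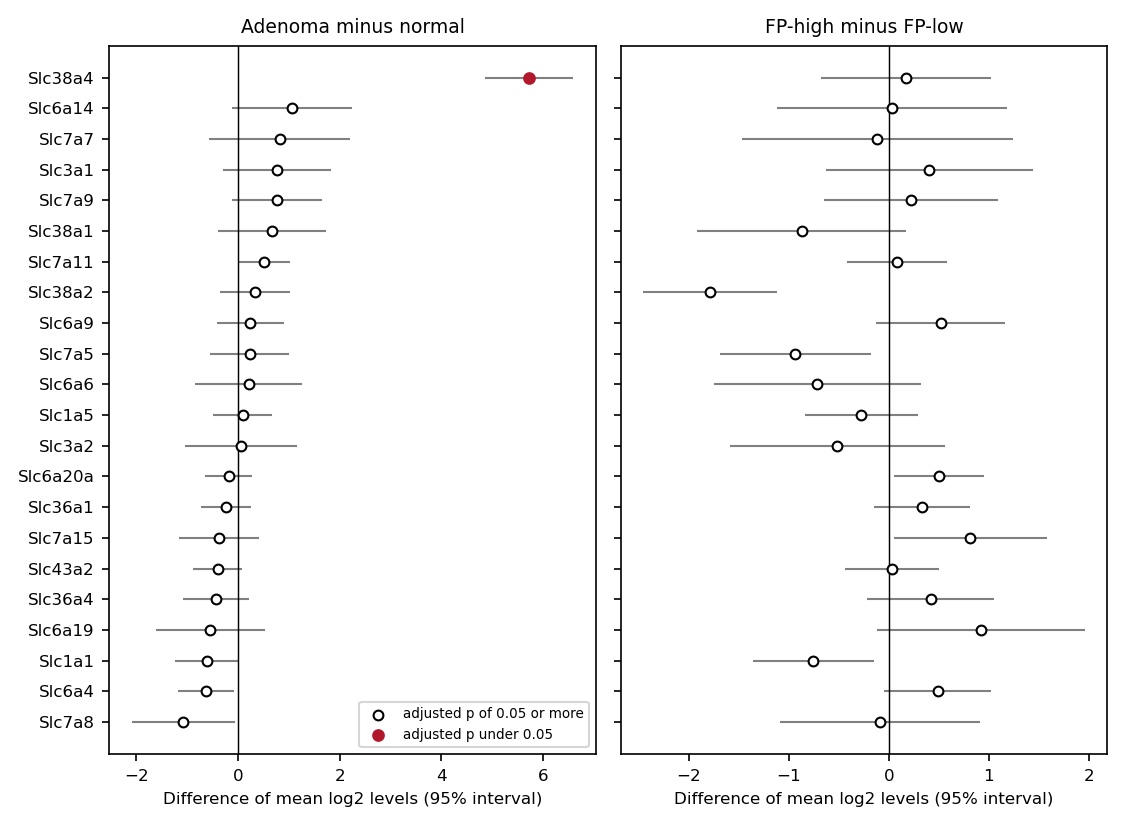
Differences of mean log2 level with 95% intervals from limma for the 22 genes given in full, adenoma minus normal on the left and FP-high minus FP-low on the right. Slc38a4 is the only filled point, with an adjusted p under 0.05, and in the right panel Slc38a2 lies farthest below 0, at -1.78.

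Slc38a4, a sodium-coupled carrier of neutral amino acids and an imprinted gene best known from liver and placenta, read 10.62, 9.33 and 8.10 in adenoma replicates 1, 2 and 3. It was at 4.50, 3.41, 3.25 and 3.65 in FP-high replicates 1 to 4. In the 6 FP-low arrays the lowest, median and highest levels were 3.29, 3.48 and 3.91. The lowest adenoma lay far above the highest normal array, and the 3 adenomas also differed among themselves, with an SD of 1.26 around a mean of 9.35. The difference was 5.73 ± 0.40 on the log2 scale (SE, limma, adjusted p = 8.50e-06), with a 95% interval of 4.86 to 6.60. Against FP-high epithelium alone it was 5.65 ± 0.46 and against FP-low alone 5.82 ± 0.43. Since the normal levels could be background, the true ratio is not bounded by this fold. Between the normal groups the gene did not pass the test (0.17 ± 0.39, adjusted p = 0.819, or -0.09 without FP-high replicate 1).

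Slc38a2, the widely expressed system A carrier whose transcript rises in cells starved of amino acids, read 7.78, 7.67 and 7.65 in adenomas and 5.42, 7.29, 6.97 and 6.24 in FP-high arrays. FP-low arrays ran from 7.84 through a median of 8.23 to 8.66. The adenomas thus lay within a narrow band, above all 4 FP-high and below all 6 FP-low arrays. FP-high minus FP-low was -1.78 ± 0.31, with a 95% interval of -2.46 to -1.11, which has an unadjusted p of 7.29e-05 but an adjusted p of 0.122 in the limma fit. The gene was called without FP-high replicate 2 (-2.05, adjusted p = 0.0423) or FP-high replicate 3 (-1.95, adjusted p = 0.0327), and not without FP-high replicate 1 (-1.43, adjusted p = 0.152). Over all probe sets the fit without replicate 2 called 1 higher and 11 lower. The fit without replicate 3 called 6 higher and 130 lower. Adenoma minus normal was 0.33 ± 0.32, or 0.15 ± 0.23 without FP-high replicate 1. With all arrays it was 1.22 ± 0.37 against FP-high alone (adjusted p = 0.183) and -0.56 ± 0.34 against FP-low alone (adjusted p = 0.820).

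Slc38a1, the other system A carrier and a glutamine importer, was at 8.29, 6.98 and 7.20 in adenomas and at 5.33, 7.74, 7.22 and 5.24 in FP-high arrays. Its FP-low levels ran from 6.83 to 7.80 around a median of 7.18. FP-high replicates 1 and 4 were low, while replicates 2 and 3 lay among the FP-low arrays. Neither adenoma minus normal (0.67 ± 0.49, adjusted p = 0.615) nor FP-high minus FP-low (-0.87 ± 0.48, adjusted p = 0.407) passed, and FP-high minus FP-low was -0.52 ± 0.48 without FP-high replicate 1. The second probe set of the gene gave 0.63 ± 0.60 and -1.14 ± 0.58 for the same comparisons. The remaining genes of this group, the system N carriers Slc38a3 and Slc38a5 and the related Slc38a8, had adenoma differences of -0.09 (-0.06 without FP-high replicate 1), -0.14 and -0.39, none of them called.

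**Figure D3:**
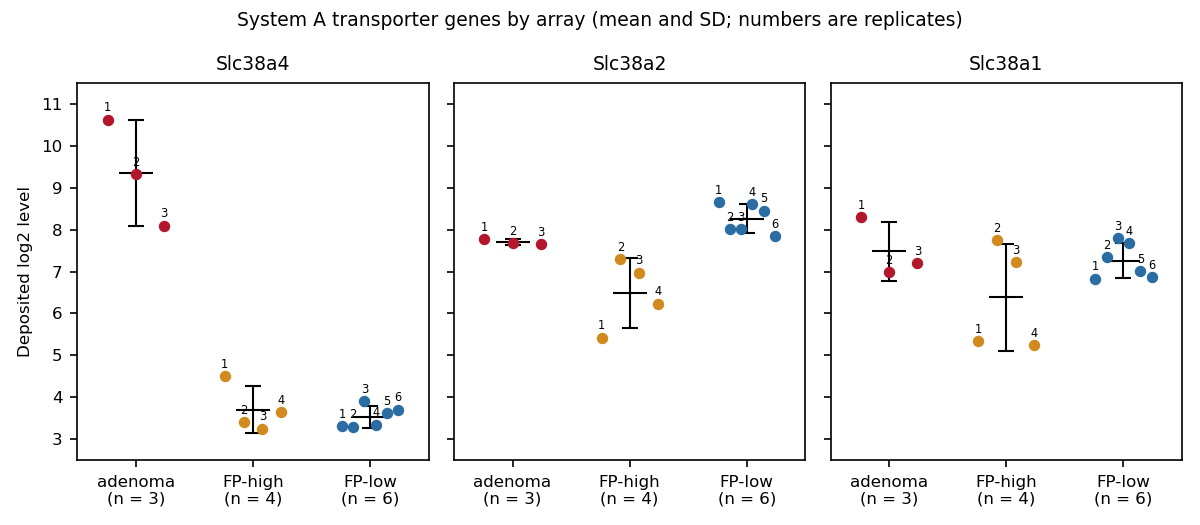
Log2 level of the 3 system A genes in each array, numbered by replicate, with group mean and SD (adenoma n = 3, FP-high n = 4, FP-low n = 6). In Slc38a4 the adenomas lie between 8.10 and 10.62 and all normal arrays at 4.50 or below, and in Slc38a2 every FP-high array is below every FP-low array.

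The 3 system A genes lie side by side on mouse chromosome 15 in the order Slc38a1, Slc38a2, Slc38a4. None of the flanking genes with a probe set was called in adenomas: Scaf11, a splicing-related factor, was at 0.25 ± 0.38 in adenomas, Amigo2, a cell adhesion protein, at -0.41 ± 0.22 (adjusted p = 0.533) and Pced1b at -0.24 ± 0.16. In FP-high epithelium Scaf11 was at -1.31 (adjusted p = 0.263), beside -0.87 for Slc38a1 and -1.78 for Slc38a2. Promoter windows of Slc38a4 and Slc38a2, from RefSeq on GRCm38.p6, are shown because these neighbours had the most extreme differences of the 64 genes, Slc38a4 in adenomas and Slc38a2 in FP-high epithelium. Each window runs from 250 bases before to 50 bases after an annotated start on the minus strand, 5′ to 3′, and capitals mark CG pairs. The Slc38a4 window is chr15:97055907-97056206, the most upstream of 3 annotated starts, and which start the adenomas used was not measured.
Slc38a4: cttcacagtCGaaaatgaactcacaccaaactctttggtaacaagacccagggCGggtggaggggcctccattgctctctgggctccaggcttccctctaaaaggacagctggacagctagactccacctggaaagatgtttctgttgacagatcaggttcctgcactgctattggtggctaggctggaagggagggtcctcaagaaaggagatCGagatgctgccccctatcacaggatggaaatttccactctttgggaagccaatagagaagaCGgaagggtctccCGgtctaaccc
The Slc38a2 window is chr15:96699679-96699978.
Slc38a2: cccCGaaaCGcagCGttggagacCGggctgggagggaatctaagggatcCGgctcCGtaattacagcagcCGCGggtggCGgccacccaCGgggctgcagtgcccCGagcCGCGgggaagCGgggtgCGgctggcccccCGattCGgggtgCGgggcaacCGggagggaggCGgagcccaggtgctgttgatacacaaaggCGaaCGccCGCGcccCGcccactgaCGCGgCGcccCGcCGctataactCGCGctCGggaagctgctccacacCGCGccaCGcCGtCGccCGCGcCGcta
The Slc38a4 window holds 5 CG pairs and 53% G or C, and 43.6% of 32841 mouse promoter windows hold 5 or fewer CG pairs. The other 2 Slc38a4 starts also have 5. The Slc38a2 window holds 41 CG pairs and 73% G or C, a count reached by 3.46% of windows, whose median is 7. The letters CCAAT, searched on both strands, occur in all 3 Slc38a4 windows and not in that of Slc38a2, and 37.4% of all windows have them. The Wnt effector core ATCAAAG (3.73% of windows) and the amino acid response core TGATGNAA (3.97%) were found in none of the 4 windows on either strand. At such shares absence is the usual case, and sequence outside these windows, such as introns, was not searched.

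Carriers that bring amino acids in across the brush border showed no called difference. Of 8 such genes, 1 was higher and 7 lower in adenomas (median -0.21), and 6 were higher and 2 lower in FP-high epithelium (median 0.20). Slc6a19, the main sodium-coupled carrier of neutral amino acids in the gut, read 5.07, 4.11 and 4.68 in adenomas and 4.94, 5.58, 7.52 and 4.45 in FP-high arrays, and its FP-low levels ran from 4.02 through 4.77 to 5.21. A single array, FP-high replicate 3, was far above the rest, and all groups overlapped. FP-high minus FP-low was 0.92 ± 0.48 (adjusted p = 0.400) and adenoma minus normal -0.54 ± 0.49 (adjusted p = 0.657). FP-high replicate 3 was also the array with the highest mean over 17 enterocyte markers, at 9.75. The other FP-high arrays had means of 6.13, 8.92 and 7.49, adenomas 6.99 to 7.39 and FP-low arrays 6.40 to 8.13, and the part of enterocyte content in these differences was not tested.

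Slc6a20a, which carries proline and other imino acids, was at 5.26, 4.63 and 5.33 in adenomas, at 5.21, 5.39, 5.66 and 5.78 in FP-high arrays and at 4.68 to 5.62 in FP-low arrays, with a median of 4.95. It was higher by 0.50 ± 0.21 in FP-high samples (adjusted p = 0.389), and the groups overlapped. Slc36a1, a proton-coupled carrier of small neutral amino acids, read 4.00, 4.23 and 3.85 in adenomas and 4.21, 4.20, 5.25 and 4.04 in FP-high arrays, beside 3.84, 4.10 and 4.40 as the lowest, median and highest FP-low levels. Here too FP-high replicate 3 alone stood high (FP-high minus FP-low 0.33 ± 0.22, adjusted p = 0.453).

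Slc1a1, the epithelial glutamate and aspartate carrier, went the other way in FP-high samples. Adenomas read 5.40, 4.60 and 4.94, FP-high arrays 4.50, 6.10, 4.99 and 5.32, and FP-low arrays ran from 5.55 through a median of 6.09 to 6.28. All 3 adenomas and 3 of the 4 FP-high arrays lay below every FP-low array, and FP-high replicate 2 lay among them. FP-high minus FP-low was -0.75 ± 0.28 (adjusted p = 0.369), or -0.51 without FP-high replicate 1. Adenoma minus normal was -0.62 ± 0.29 (adjusted p = 0.473), which passed with array weights only (-0.88, adjusted p = 0.0412). The adenoma difference came to -0.996 ± 0.31 against FP-low alone and -0.24 ± 0.33 against FP-high alone.

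The heteromeric exchangers and their heavy chains numbered 12, of which 8 were higher in adenomas (median 0.15), and none passed the test in either comparison. Slc3a1 and Slc7a9 encode the heavy and light chain of the brush border exchanger for cystine and dibasic amino acids. Slc3a1 was at 6.78, 6.75 and 6.16 in adenomas, at 4.63, 6.60, 6.79 and 5.97 in FP-high arrays, and at 4.73 to 6.99 in FP-low arrays with a median of 5.51. Slc7a9 was at 6.67, 6.36 and 6.27 in adenomas, at 4.63, 6.30, 6.14 and 6.05 in FP-high arrays, and at 4.63 to 6.83 in FP-low arrays with a median of 5.47. Both partners had the same pair of extremes: FP-high replicate 1 was the lowest array and FP-low replicate 1 the highest. Adenomas lay above the remaining FP-low arrays in both, with differences from normal of 0.77 ± 0.49 for Slc3a1 (adjusted p = 0.578) and 0.77 ± 0.41 for Slc7a9 (adjusted p = 0.525).

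At the basolateral face, the light chains Slc7a7 and Slc7a8 pair with Slc3a2. Slc7a7, which exports cationic amino acids, read 7.39, 7.63 and 7.25 in adenomas, 3.88, 7.08, 7.91 and 7.31 in FP-high arrays, and 6.06 to 7.77 in FP-low arrays with a median of 6.54. FP-high replicate 1 sat more than 2 log2 units below every other array. With it, FP-high minus FP-low was -0.12 ± 0.63, and without it 0.77 ± 0.32 (adjusted p = 0.534). Slc7a8, an exchanger of neutral amino acids, read 3.80, 4.68 and 4.08 in adenomas, 4.87, 5.60, 6.25 and 4.15 in FP-high arrays, and 4.49 to 6.33 in FP-low arrays with a median of 5.26. It had the lowest adenoma difference of the 64 genes, -1.07 ± 0.47 with an unadjusted p of 0.0408, and did not pass (adjusted p = 0.440). The adenoma difference of Slc7a7 was 0.82 ± 0.64 (adjusted p = 0.627), and 0.38 ± 0.31 without FP-high replicate 1.

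Slc3a2 and Slc7a5 form the exchanger through which growing cells import leucine and other large neutral amino acids. Slc3a2 was at 5.37, 5.78 and 5.98 in adenomas, at 3.79, 5.63, 6.85 and 5.30 in FP-high arrays, and at 5.17 to 6.90 in FP-low arrays with a median of 5.75. Slc7a5 was at 6.09, 5.91 and 6.38 in adenomas, at 4.71, 5.60, 6.33 and 5.06 in FP-high arrays, and at 5.67 to 7.30 in FP-low arrays with a median of 6.12. In Slc7a5, 3 of the 4 FP-high arrays lay below every FP-low array. FP-high minus FP-low was -0.93 ± 0.35 for Slc7a5 (adjusted p = 0.375) and -0.51 ± 0.49 for Slc3a2 (adjusted p = 0.574). Without FP-high replicate 1 these were -0.70 for Slc7a5 and 0.02 for Slc3a2. Adenoma differences of 0.23 ± 0.36 for Slc7a5 and 0.06 ± 0.51 for Slc3a2 were smaller than their standard errors, as were 0.12 ± 0.34 for Slc7a5 and -0.21 ± 0.39 for Slc3a2 without that array.

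**Figure D4:**
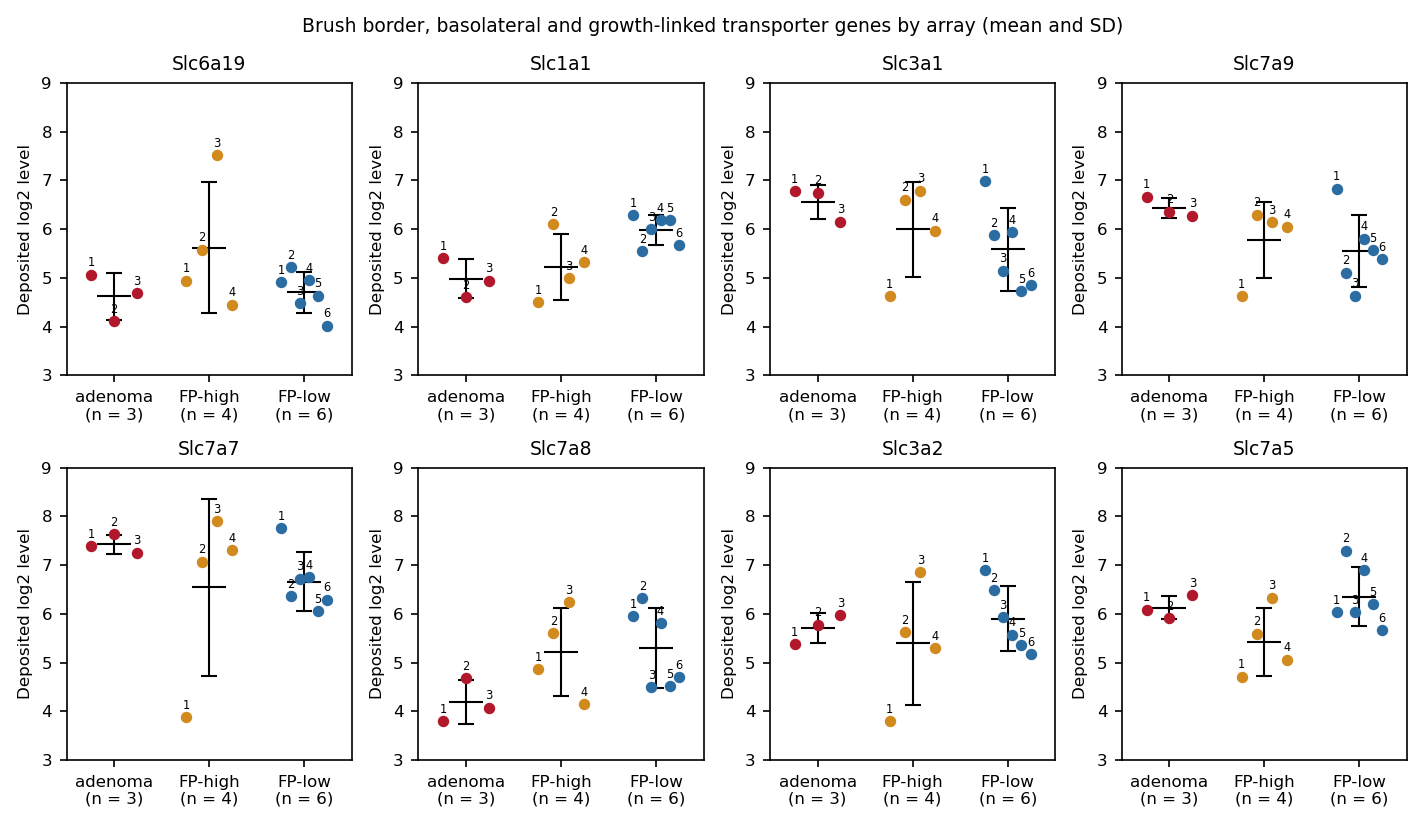
Log2 level of 8 transporter genes in each array, numbered by replicate, with group mean and SD (adenoma n = 3, FP-high n = 4, FP-low n = 6). FP-high replicate 1 is the lowest array in Slc1a1, Slc3a1, Slc7a9, Slc7a7, Slc3a2 and Slc7a5, and FP-high replicate 3 is the highest in Slc6a19.

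Slc7a15, whose mouse product exchanges aromatic amino acids, was at 3.59, 4.28 and 4.11 in adenomas and at 4.53, 4.58, 6.14 and 3.86 in FP-high arrays, and its FP-low levels ran from 3.55 through 3.98 to 4.30. FP-high replicate 3 was again the array that stood high, and the difference from FP-low was 0.82 ± 0.35 (adjusted p = 0.391).

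Several growth-linked carriers were high in a single adenoma. Slc6a14, a broad concentrative carrier of neutral and cationic amino acids, read 6.37 in adenoma replicate 1, 2.71 and 2.99 in the other 2 adenomas, 3.05, 2.83, 3.04 and 3.02 in FP-high arrays and 2.69 to 3.04 in FP-low arrays. The difference of 1.06 ± 0.55 (adjusted p = 0.517) thus rested on 1 tumour and was -0.12 without it. Slc7a11, the cystine and glutamate exchanger, read 4.55, 3.48 and 3.34 in adenomas, 3.80, 3.17, 2.92 and 3.40 in FP-high arrays and 3.04 to 3.33 in FP-low arrays (0.51 ± 0.24, adjusted p = 0.476). Slc7a6, another basolateral exchanger, read 6.45, 4.95 and 5.07 in adenomas, 4.19, 4.92, 4.77 and 4.60 in FP-high arrays and 4.75 to 5.39 in FP-low arrays (0.66 ± 0.28, unadjusted p = 0.0378, adjusted p = 0.433). Adenoma replicate 1 was the highest of all 13 arrays in each of these 3 genes, as it was in Slc38a4 and Slc38a1.

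**Figure D5:**
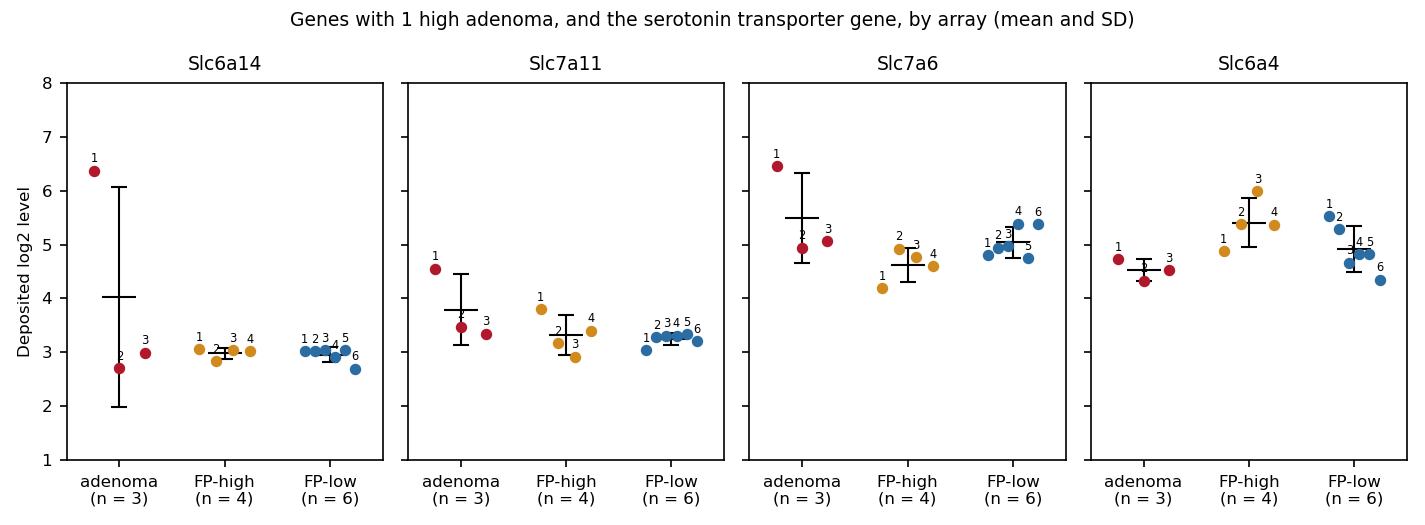
Log2 level of Slc6a14, Slc7a11, Slc7a6 and Slc6a4 in each array, numbered by replicate, with group mean and SD (adenoma n = 3, FP-high n = 4, FP-low n = 6). Adenoma replicate 1 is the top array in the first 3 genes, at 6.37 in Slc6a14, and all 3 adenomas are low in Slc6a4.

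Among the 5 cationic carriers, all were lower in adenomas by sign (median -0.17) and none was called. Slc7a1, the ubiquitous importer of arginine and lysine, read 5.81, 5.75 and 5.87 in adenomas and 4.98, 5.63, 5.95 and 5.69 in FP-high arrays, while FP-low arrays ran only from 6.00 to 6.18 with a median of 6.07. FP-high arrays all lay below the FP-low arrays, the highest of them by a small margin. The difference was -0.52 ± 0.16 (unadjusted p = 0.0071, adjusted p = 0.310), and -0.33 ± 0.10 without FP-high replicate 1. Of the neutral exchangers of the Slc1 family, Slc1a5, a glutamine exchanger, read 5.65, 5.41 and 5.85 in adenomas, 4.39, 5.71, 5.97 and 5.54 in FP-high arrays and 5.40 to 6.03 in FP-low arrays with a median of 5.66. Apart from FP-high replicate 1 its arrays overlapped fully, with an adenoma difference of 0.09 ± 0.27 (-0.07 without that array), and Slc1a4 was at -0.0026 ± 0.17 (0.07 without it).

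The 7 lysosomal, intracellular and orphan members of the Slc36 and Slc38 families split 3 higher and 4 lower in adenomas, and 6 were higher in FP-high epithelium. Slc38a9, the lysosomal arginine sensor upstream of mTORC1, was at 5.76, 5.74 and 6.27 in adenomas, 4.82 to 5.60 in FP-high arrays and 4.38 to 6.66 in FP-low arrays (0.64 ± 0.38, adjusted p = 0.560), and its second probe set gave 0.39 ± 0.23. Slc36a4 read 3.12, 2.89 and 2.66 in adenomas, 4.73, 2.79, 3.28 and 3.35 in FP-high arrays and 2.88 to 3.48 in FP-low arrays, with FP-high replicate 1 alone high and an adenoma difference of -0.44 ± 0.30 (adjusted p = 0.597), or -0.24 ± 0.16 without that array. Slc36a3 was a call that appeared when FP-high replicate 1 was left out (-0.46 ± 0.11, adjusted p = 0.0488). With all arrays it was at -0.39 ± 0.15 (adjusted p = 0.363), and it read below the array median everywhere. Of the 3 facilitative Slc43 carriers, Slc43a2, which lets branched-chain and aromatic amino acids out of the cell, was at 3.87, 3.85 and 3.32 in adenomas, 3.67, 4.16, 4.66 and 3.90 in FP-high arrays and 3.76 to 4.50 in FP-low arrays (-0.40 ± 0.22, adjusted p = 0.535).

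The 4 glutamate transporters known from neurons and glia were all lower in adenomas by sign, with a median of -0.31 and none called. In Slc1a3, the glial glutamate carrier, adenomas read 4.21, 4.23 and 4.28, FP-high arrays 4.31 to 4.77 and FP-low arrays 4.30 to 5.18. The highest adenoma and the lowest normal array were nearly level, and the difference of -0.34 ± 0.18 had an adjusted p of 0.522. Markers of neurons and glia included 7 measured genes, with a median adenoma difference of 0.0006 and none called, and their mean level ran from 3.91 to 4.08 in adenomas, 3.94 to 4.12 in FP-high and 3.83 to 4.14 in FP-low arrays.

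Carriers of the Slc6 family for neurotransmitters, osmolytes and creatine made up the largest role group, with 14 genes, of which 10 were lower in adenomas and 11 higher in FP-high epithelium. Slc6a4, the serotonin transporter, which enterocytes use to clear serotonin, read 4.73, 4.33 and 4.53 in adenomas, 4.88, 5.37, 5.99 and 5.37 in FP-high arrays and 4.35 to 5.53 in FP-low arrays with a median of 4.82. All adenomas lay below all FP-high arrays, and 2 of the 3 lay within the FP-low range with the other just under it. The adenoma difference was -0.63 ± 0.25 (adjusted p = 0.400), and it passed with array weights only (-0.79, adjusted p = 0.0439). Slc6a6, the taurine carrier, read 5.74, 6.77 and 6.60 in adenomas, 4.03, 6.81, 6.33 and 6.04 in FP-high arrays and 5.47 to 7.005 in FP-low arrays. Its FP-high difference was -0.71 ± 0.48 (adjusted p = 0.451), and -0.12 ± 0.33 without FP-high replicate 1. Slc6a9, a glycine carrier, read 5.52, 4.65 and 4.97 in adenomas, 6.23, 4.87, 4.68 and 4.49 in FP-high arrays and 4.23 to 4.73 in FP-low arrays, with a difference of 0.52 ± 0.30 between FP-high and FP-low (adjusted p = 0.414). FP-high replicate 1 was the highest of all arrays, and without it the difference was 0.13 ± 0.18.

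The rule also took in 3 symbols that are not established transporters of these families. Slc6a19os is a long non-coding RNA, Slc7a6os a protein-coding gene named for its place on the opposite strand from Slc7a6, and Slc6a21 a family member of unknown function. None was called. Slc7a6os was at 7.35, 7.62 and 7.61 in adenomas, 4.84 to 7.78 in FP-high arrays and 6.32 to 7.37 in FP-low arrays (0.70 ± 0.47, adjusted p = 0.590). FP-high replicate 1 was the lowest array, and without it the adenoma difference was 0.38 ± 0.22.

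Genes that act with the transporters showed 0 calls in both comparisons in 5 lists. Of 19 measured genes of the amino acid response and of serine and asparagine synthesis, 7 were higher and 12 lower in adenomas (median -0.14). In FP-high epithelium 6 were higher and 13 lower (median -0.10), but 11 were higher and 8 lower without FP-high replicate 1 (median 0.11). The smallest p-values in adenomas belonged to Phgdh, the first enzyme of serine synthesis (0.66 ± 0.18, adjusted p = 0.150), Vldlr (0.67 ± 0.19), the mitochondrial serine enzyme Shmt2 (-0.73 ± 0.21) and the stress factor Atf3 (-1.19 ± 0.43). In FP-high samples Asns, which makes asparagine, was at -0.80 ± 0.27 (adjusted p = 0.339) and Atf3 at -1.14 ± 0.42. The 28 genes of amino acid sensing by mTORC1 split 11 higher and 17 lower in both comparisons, with medians of -0.09 in adenomas and -0.12 in FP-high samples. The latter median was -0.03 when FP-high replicate 1 was left out. Rragd, a Rag GTPase of that pathway, came nearest to a call in adenomas (-1.45 ± 0.34, adjusted p = 0.0799).

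Of 24 measured enzymes of glutamine, glutamate and amino acid breakdown, 19 were lower in adenomas (median -0.18). The urea cycle enzymes Otc (-1.50 ± 0.44, adjusted p = 0.192) and Cps1 (-1.79 ± 0.57), the arginase Arg2 (-1.74 ± 0.66) and Oat, which makes ornithine in the gut (-0.95 ± 0.42), had the smallest p-values. Without FP-high replicate 1 these same 4 enzymes, and no others of the list, were called as lower in adenomas: Otc at -1.81 ± 0.20 (adjusted p = 0.00071), Oat at -1.24 ± 0.19 (adjusted p = 0.0073), Cps1 at -2.14 ± 0.36 (adjusted p = 0.011) and Arg2 at -2.11 ± 0.48 (adjusted p = 0.048). In that fit 0.615% of all probe sets were called as lower and 1.47% as higher. Without that array the transsulfuration enzyme Cth of the amino acid response list was also called as lower (-1.30 ± 0.29, adjusted p = 0.0425). Amino acid and peptide carriers of other families were lower in adenomas in 15 of 18 cases (median -0.14) and higher in FP-high epithelium in 15 (median 0.15), with the aromatic amino acid carrier Slc16a10 at -0.50 ± 0.17 in adenomas (adjusted p = 0.277). All 9 measured brush border partners and peptidases were higher in FP-high samples by sign (median 0.64). Among them Cltrn, which accompanies Slc6 carriers in kidney membranes, was at 0.45 ± 0.15 (adjusted p = 0.320).

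Some markers of gut position and of other cell types were called in adenomas. Called as higher in adenomas were 3 of the 8 genes listed as distal small intestine markers (Fabp6, Slc10a2 and Clu). Of these, Clu is not specific to gut position. Also called as higher was 1 of 9 genes listed as T lymphocyte markers, Ptprc, which is not specific to T lymphocytes. So were 2 of 9 fibroblast markers (Dcn and Fn1) and 1 of 7 mast cell markers (Mcpt2). By sign, 8 of the 9 T lymphocyte markers were lower. Medians over the lists were 1.06 for distal, -0.44 for T lymphocyte, 0.06 for fibroblast and -0.16 for mast cell markers. None of the 9 proximal small intestine markers was called with all arrays, and 3 were higher and 6 lower in adenomas (median -0.06). Mean levels of the distal list were 6.84 to 7.25 in adenomas, 4.89 to 5.61 in FP-high and 4.54 to 5.28 in FP-low arrays. Those of the proximal list were 4.79 to 5.07, 5.01 to 6.25 and 4.97 to 5.93 in the same groups. For T lymphocyte markers mean levels were 4.35 to 4.86 in adenomas, 4.79 to 5.81 in FP-high and 4.08 to 5.18 in FP-low arrays. Fibroblast markers had means of 4.67 to 5.36 in adenomas, 4.50 to 4.77 in FP-high and 4.42 to 4.74 in FP-low arrays, and mast cell markers 3.73 to 4.27 in adenomas, 3.13 to 3.89 in FP-high and 3.15 to 3.56 in FP-low arrays. Without FP-high replicate 1, Cdh5 (0.86) and Emcn (0.75), 2 of 6 endothelial markers, were also called as higher. So was the keratin gene Krt18 (1.08), 1 of 8 epithelial markers. In that fit the endothelial and epithelial lists had medians of -0.02 and 0.03. Called as lower were Adh6a (-3.80, 1 of 9 proximal markers), Lyz1 (-2.23, 1 of 7 Paneth markers) and Lyz2 (-2.15, 1 of 9 macrophage and dendritic cell markers). Medians of these lists were -0.17, -0.57 and 0.05. All 3 adenomas read 8.88 to 9.71 in Xist, an RNA of female cells, where FP-high arrays read 2.65 to 8.64 and FP-low arrays 2.34 to 8.74. Of 4 measured sex-linked transcripts, Xist among them, 1 was higher and 3 lower in adenomas (median -1.74). All 4 had an unadjusted p under 0.05 in limma, and none was called. Of the transporter genes, Slc38a5, Slc6a14, Slc6a8 and Slc7a3 lie on the X chromosome, and Slc38a4 does not. The part of gut position, other cells or sex in the Slc38a4 difference was not tested. Between the normal groups, all 14 measured cell cycle markers lay lower by sign in FP-high samples (median -1.18, or -0.95 when FP-high replicate 1 was left out). Their mean level was 5.48 to 6.99 in FP-high and 7.06 to 7.62 in FP-low arrays. Enterocyte markers ran the other way, with 16 of 17 higher in FP-high samples (median 0.63) and 17 of 17 without FP-high replicate 1 (median 1.34), and all 7 Paneth markers were lower (median -1.29, or -0.36 without that array). The part of these markers in the low Slc38a2, Slc7a1 and Slc7a5 levels was not tested.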

How the data were processed

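The deposited table holds log2 values of 35556 probe sets on 13 arrays, made by the authors with Affymetrix software (Command Console per the series' design text, Expression Console and Transcriptome Analysis Console per the submitters' processing notes). Versions, background correction, normalization and summarisation are not stated there. No column of samples was left out. Probe sets were named from the platform annotation, and all 64 transporter genes matched RefSeq by Entrez identifier.

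The 23410 probe sets with a symbol were fitted with limma 3.58.1 in R 4.3.3 (lmFit and eBayes, two-sided) on all 13 arrays with 3 group means and no covariate or filter, and 12146 without a symbol were left out. Benjamini-Hochberg adjustment covered all tested probe sets, and an adjusted p under 0.05 was a call. The fit was also run on simulated data with independent normal errors of equal size over all arrays. Those data hold no compressed array, so they do not show how the fit behaves with FP-high replicate 1. Errors are SEs of differences or SDs between arrays, and precision is limited by how few arrays there are.

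Replicate numbers are shared between groups, so it was checked whether same-numbered arrays deviate together from their group means. Adenoma and FP-high pairs all passed the bound of 0.1 (r of 0.103 to 0.233), which comes from the data and not from the labels. Arrays with different numbers were not correlated, so these values have no baseline and a shared deviation is not shown. Pairs of adenoma and FP-low arrays ran from -0.116 to 0.061, and pairs of FP-high and FP-low arrays from -0.361 to 0.178.

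Given in full are 22 genes: called genes, the 5 largest differences in each direction and comparison, and textbook intestinal and growth-linked transporters. From other lists, called genes are named, otherwise up to 4 with the smallest p. The families, lists and tests were chosen with earlier results of these data known. Alternatives were quantile normalization, a filter on dim probe sets, all probe sets, array weights, a replicate block, the most variable probe set per gene, a trend and robust prior, each normal group alone, and each array left out. FP-high alone with the block, and counts, medians and list calls without FP-high replicate 1, were added after the data were seen.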

Additional observations from a re-analysis of the deposited data

Results flagged for a closer look

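Groups of 4 or 6 arrays were searched for 1 array far from the rest in the 22 genes given in full, which made 44 groups, and 3 were found, all among FP-high arrays. Chance alone gives about 1 in 20. Slc36a1 was at 5.25 in FP-high replicate 3 and at 4.04 to 4.21 in the others. Slc7a9 was at 4.63 in FP-high replicate 1 and at 6.05 to 6.30 in the others. Slc6a14 was at 2.83 in FP-high replicate 2 and at 3.02 to 3.05 in the others, a gap of little size at a dim level. Of these 3, 1 rests on FP-high replicate 1, the array with the compressed values.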

How the results depend on the processing

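The Slc38a4 call in adenomas held in every alternative run, at 5.10 to 6.36 with adjusted p between 8.69e-07 and 0.0071; the replicate block gave 5.74 (adjusted p = 0.00263) and, against FP-high alone, 5.62. The replicate block changed no other call among the transporter genes. Their number called in adenomas was 4 with array weights (Slc38a4, Slc1a1, Slc36a3 and Slc6a4), where all probe sets gave 692 higher and 461 lower, and 1 to 2 when single arrays were left out, 2 being without FP-high replicate 1 (344 higher and 144 lower over all probe sets). In FP-high against FP-low epithelium it was 0 to 1 when single arrays were left out, 1 being Slc38a2. That gene was called without FP-high replicate 2, where all probe sets gave 1 higher and 11 lower. It was also called without FP-high replicate 3, where they gave 6 higher and 130 lower. At unadjusted p under 0.05, leaving out single arrays gave 1 to 4 higher and 2 to 9 lower in adenomas, and 2 to 9 higher and 2 to 5 lower in FP-high samples. Both counts of 9 came from leaving out FP-high replicate 1. In that fit 864 of 23410 probe sets were higher and 1132 lower in FP-high samples at the same threshold. With all arrays, 5.98% of all probe sets were higher and 4.59% lower in adenomas. The adenoma shares at this threshold without FP-high replicate 1 are not given here, so the 9 lower genes have no matching baseline. At adjusted p under 0.05 in limma, 144 probe sets were lower in adenomas without that array and 6 with all arrays.

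Some differences changed sign, and not all of them were small: that of Slc6a14 in adenomas was 1.06 with all arrays. In adenomas these were, with array weights, Slc1a5 (-0.11) and Slc3a2 (-0.17), with the replicate block Slc3a2 (-0.22), and with FP-high alone Slc6a9 (-0.021, or -0.16 with the block). With FP-low alone they were Slc1a5 (-0.042), Slc38a2 (-0.56), Slc3a2 (-0.20), Slc6a20a (0.067), Slc6a6 (-0.14), Slc7a15 (0.034) and Slc7a5 (-0.23). Leaving out single arrays gave -0.12 to 1.71 for Slc6a14, -0.31 to 0.037 for Slc6a20a, -0.074 to 0.21 for Slc1a5, -0.21 to 0.30 for Slc3a2 and -0.083 to 0.53 for Slc6a6. Between FP-high and FP-low, quantile normalization turned Slc43a2 (-0.16), Slc6a14 (-0.20) and Slc7a11 (-0.11). Array weights turned Slc1a5 (0.0081), Slc38a4 (-0.013), Slc6a14 (-0.0072), Slc7a11 (-0.064) and Slc7a7 (0.61), and the replicate block turned Slc43a2 (-0.086) and Slc6a14 (-0.0096). Leaving out single arrays gave -0.46 to 0.065 for Slc1a5, -0.094 to 0.32 for Slc38a4, -0.998 to 0.021 for Slc3a2, -0.081 to 0.21 for Slc7a11, -0.57 to 0.77 for Slc7a7, -0.43 to 0.27 for Slc7a8, -0.15 to 0.18 for Slc43a2 and -0.019 to 0.083 for Slc6a14. None of these was called, and the cause was not tested. Of the other values, 883 kept their direction and side of the threshold. Groups of 3, 4 and 6 arrays, and levels with no detection calls, limit what can be read from dim genes.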
